A study of Homo sapiens with 6 samples.

Results

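LINC genes are long noncoding RNA genes that carry the symbol LINC and 5 digits, the name given to an intergenic transcript that has no symbol based on a function or a neighbour. They were chosen as the array rows that the platform's annotation names with exactly 1 symbol of this form, with the row of the highest mean over the arrays standing for a gene. This gave 928 genes, from 955 rows, of 33616 genes in all. RNA came from H295R cells, a steroid-producing line from a human adrenocortical carcinoma that carries an activating mutation of beta-catenin. The treated group had 24 h of 5 µM CX-4945 (3 arrays), and the other group had 24 h of its solvent DMSO (3 arrays). CX-4945 (silmitasertib) is an inhibitor of casein kinase 2 (CK2), and CLK kinases, which phosphorylate splicing factors, are known further targets of it. The question was which of these RNAs differed in level between the treated and the solvent-exposed cells. The labels do not state whether replicates came from separate cultures; the p-values therefore cover the spread between these 6 samples alone, which may be technical. All results are from 1 cell line.

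Long intergenic noncoding RNAs are mostly transcribed by RNA polymerase II and, like messenger RNAs, are often spliced and polyadenylated, but they are typically of low abundance and restricted to few cell types. Some stay in the nucleus and act near their own gene, others bind proteins or microRNAs, a few encode short peptides, and for most no role is known. A whole-transcript array measures them in the same way as coding genes, as the hybridisation signal of a set of probes, and a row does not tell linear, circular and unspliced RNA apart.

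The label was checked against the RefSeq annotation of GRCh38.p14, in which all 928 genes found a match. Of these, 918 were lncRNA genes, 8 were protein-coding genes and 2 were pseudogenes. Under a newer name stood 17 of them, among them LINC00341, now counted as SYNE3, the gene of nesprin-3, a protein of the nuclear envelope. The bodies of 70 of the 928 overlapped an annotated protein-coding gene, and those of 858 did not. The word intergenic thus did not hold for all members. Of 10 measured markers of adrenocortical cells, 7 lay above the background level defined below with CX-4945 and 8 with DMSO, and MC2R and INHA were below it in both groups. Of 5 measured chromaffin or neuroendocrine markers, CHGB alone was above it in either group. Above it in both groups were 3 of 4 measured fibroblast markers (COL1A1, COL1A2 and DCN) and, of 4 endothelial markers, VWF. Of 3 measured leukocyte markers 2 were above it with CX-4945 (CD14 and CD3E) and 1 with DMSO (CD3E).

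The windows around the annotated start site of 5 genes with large and stable changes are shown as examples. No window was found for LINC03030, LINC00467 or LINC00174, which fell more than LINC00339. The windows shown were the first listed RefSeq windows of GRCh38.p14 (250 bases before to 50 after the start). The windows are chr14:50104994-50105293 on the - strand for LINC01599, chr14:50007471-50007770 (-) for LINC01588, chr19:27793891-27794190 (-) for LINC00662, chr9:136617132-136617431 (-) for LINC01451 and chr1:22024941-22025240 (+) for LINC00339. The first 3 genes were higher with CX-4945 and the other 2 lower. Each is written 5′ to 3′ on its own strand, and capitals mark a match to a searched motif.
LINC01599: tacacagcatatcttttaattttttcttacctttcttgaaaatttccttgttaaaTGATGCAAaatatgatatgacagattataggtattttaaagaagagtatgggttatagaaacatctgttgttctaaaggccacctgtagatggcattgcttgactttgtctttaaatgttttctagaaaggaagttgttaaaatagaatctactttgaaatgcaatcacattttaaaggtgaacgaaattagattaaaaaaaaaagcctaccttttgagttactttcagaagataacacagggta
LINC01588: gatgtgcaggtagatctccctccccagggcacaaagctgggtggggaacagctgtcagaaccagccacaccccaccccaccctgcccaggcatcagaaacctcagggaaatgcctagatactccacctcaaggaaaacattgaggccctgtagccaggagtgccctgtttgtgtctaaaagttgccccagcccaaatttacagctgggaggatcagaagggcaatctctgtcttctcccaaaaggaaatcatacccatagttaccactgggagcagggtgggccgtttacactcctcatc
LINC00662: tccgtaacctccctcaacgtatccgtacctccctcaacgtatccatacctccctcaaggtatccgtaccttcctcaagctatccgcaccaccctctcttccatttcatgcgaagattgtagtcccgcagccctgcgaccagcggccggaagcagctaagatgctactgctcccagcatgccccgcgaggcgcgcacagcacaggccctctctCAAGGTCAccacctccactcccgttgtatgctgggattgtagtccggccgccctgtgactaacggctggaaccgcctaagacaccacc
LINC01451: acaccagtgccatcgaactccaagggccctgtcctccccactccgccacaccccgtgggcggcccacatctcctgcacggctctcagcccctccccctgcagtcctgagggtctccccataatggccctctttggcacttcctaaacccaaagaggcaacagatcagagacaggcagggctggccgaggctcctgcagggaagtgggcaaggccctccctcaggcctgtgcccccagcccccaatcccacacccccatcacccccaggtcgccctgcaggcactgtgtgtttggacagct
LINC00339: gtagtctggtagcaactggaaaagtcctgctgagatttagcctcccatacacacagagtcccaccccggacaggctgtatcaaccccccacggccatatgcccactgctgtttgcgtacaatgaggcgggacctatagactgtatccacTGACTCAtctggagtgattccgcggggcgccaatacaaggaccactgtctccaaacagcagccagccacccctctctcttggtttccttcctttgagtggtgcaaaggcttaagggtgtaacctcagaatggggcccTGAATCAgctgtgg

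The capitals in LINC01599 are a match to the ATF4-type element TGATGNAA, those in LINC00662 a match to the NR5A1 motif CAAGGNCA, and those in LINC00339 are 2 matches to the AP-1 motif TGANTCA. The window of LINC01599 held 29.3% G and C with 1 CpG, while that of LINC00662 held 59.3% with 20 CpGs. A window was found for 634 of the 928 genes. Both strands were searched for the motifs of 6 factors or factor families active in hormone and stress responses. Among the stable changes described below, each motif lay in at most 2 of 22 windows of genes that rose. Of the 10 windows of genes that fell, each motif lay in at most 1. These counts are small, and no test of them was run. The element TGATGNAA lay in 2 of 22 windows of genes that were higher and in 0 of 10 of genes that were lower, against 5.2% of LINC windows and 3.7% of 27305 windows of all genes. The NR5A1 motif lay in 2 of the 22 and 0 of the 10, against 8.5% of LINC windows and 5.4% of all. The AP-1 motif lay in 2 of the 22 and 1 of the 10, against 13.4% and 7.8%. The cAMP response element TGACGTCA lay in 0 of either, against 1.1% of LINC windows and 2.0% of all. The EGR motif GCGNGGGCG lay in 1 of the 22 and 1 of the 10, against 3.0% and 9.3%, and the TCF/LEF motif ATCAAAG in 0 of either, against 2.8% and 2.6%. TGATGNAA shares its first bases with other ATF and AP-1 elements, and the matches describe letters only.

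Most LINC genes were close to background. The background level was the 95th percentile of the group means of 374 olfactory receptor genes, which are not known to be used by adrenocortical cells, and equalled a log2 intensity of 6.38 or an intensity of 83.5. Above it in at least 1 group were 176 of 928 LINC genes (19.0%, with a 95% Wilson interval of 16.6 to 21.6 over genes), compared with 32.5% of 1010 antisense RNAs, 63.4% of 17719 protein-coding genes and 51.7% of all genes. The interval treats genes as independent, although all were measured on the same 6 arrays, and does not cover the choice of level. With CX-4945 162 LINC genes were above it and with DMSO 155; 141 were above in both, 21 with CX-4945 alone and 14 with DMSO alone. Counted on single arrays, 174, 165 and 168 LINC genes were above it with CX-4945, against 159, 157 and 161 with DMSO. The groups did not overlap in this count, but it moves with the scale of the arrays. The median LINC intensity was 30.6, 31.3 and 30.8 with CX-4945 and 29.9, 27.1 and 30.3 with DMSO. The median log2 level over the 6 arrays was 4.92 for LINC genes, 4.69 for olfactory receptors and 7.61 for protein-coding genes, so a typical member sat nearer to the olfactory receptors. With the 99th percentile as background 11.3% of the LINC genes were above it, and with the median 59.6%.

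Of the 928 LINC genes, 69 rose (7.44%) and 32 fell (3.45%) with CX-4945 at a limma adjusted p of 0.05. Over all 33616 genes 10.3% were higher and 12.5% lower, or 22.8% in all, compared with 10.9% in all for LINC genes. Changes of at least 2-fold were called for 27 of the 928 LINC genes that were higher and 15 that were lower. Over all 33616 genes 1459 were called higher and 2357 lower by at least 2-fold. The LINC share of calls was thus under the background share, while more members rose than fell, the other way round from all genes. The 3 CX-4945 arrays and the 3 DMSO arrays did not overlap in 227 LINC genes (24.5%), against 36.0% of all genes. The median log2 difference was 0.09 for LINC genes and 0.02 for all genes. The direction of the balance depended on the scale. After quantile normalization the median of all genes was -0.09 and that of the LINC genes -0.02, and 47 LINC genes were higher and 47 lower. Among all genes 7.81% were then higher and 15.7% lower. Rises made up 68.3% of the LINC calls as deposited and 50.0% after quantile normalization, compared with 45.3% and 33.2% over all genes. Called in the same direction under both scalings were 79 LINC genes, 47 higher and 32 lower, and 0 were called in opposite directions. No such count over all genes is given here. On both scales the LINC median was 0.07 above that of all genes. With equal array medians 46 were higher and 51 lower. Without DMSO replicate 1 there were 42 higher and 30 lower, and without moderation of the variance 32 and 12.

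**Figure D1:**
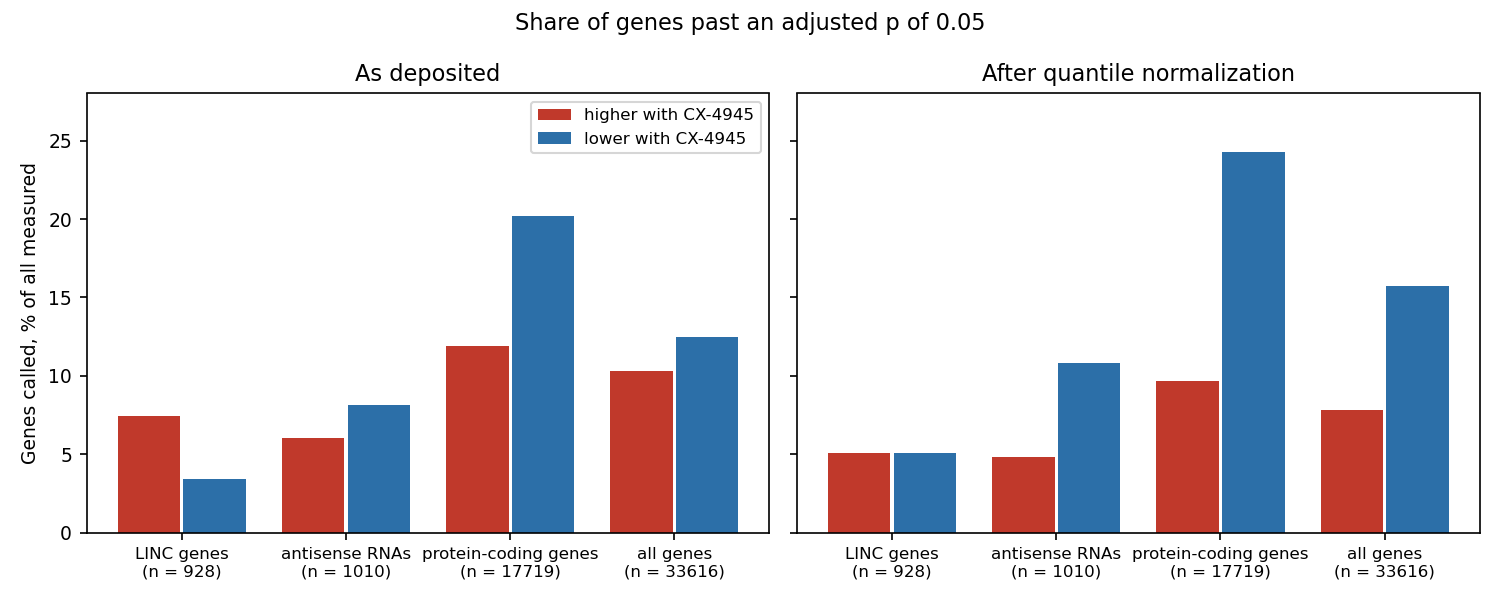
Share of genes called higher (red) or lower (blue) with CX-4945, in percent of all measured genes of the class, for LINC genes, antisense RNAs, protein-coding genes and all genes, as deposited (left) and after quantile normalization (right). LINC genes had 7.44% higher and 3.45% lower as deposited and 5.06% each after quantile normalization, and the other classes had more lower than higher on both scales.

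Among antisense RNAs, another class of noncoding genes, 61 were higher and 82 lower as deposited (14.2% called), and after quantile normalization 49 and 109. Protein-coding genes were called more often, with 2113 rises and 3579 falls (32.1%). No test of the difference between classes was run.

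The calls followed brightness. Of 496 LINC genes with a mean log2 level under 5, 5.85% were called, compared with 4.08% of all genes in that range. It was 6.52% of 230 LINC genes and 9.33% of all genes between 5 and 6, and 13.5% of 89 and 18.0% between 6 and 7. Between 7 and 9 the share was 34.7% of 75 LINC genes and 31.2% of all genes, and at 9 and over it was 50.0% of 38 LINC genes and 49.0% of all genes. At matched brightness the LINC share of calls was thus above that of all genes in 3 ranges and below it in 2. The share that rose was close to that of all genes between 5 and 6 (4.78% of LINC genes and 4.98% of all) and between 6 and 7 (8.99% and 8.25%). It was higher for LINC genes under 5 (3.83% and 2.42%) and between 7 and 9 (21.3% and 12.3%). At 9 and over it was 39.5% and 22.0%, and 15 LINC genes rose and 4 fell there. Between 7 and 9 the balance depended on the scale, with 16 LINC genes higher and 10 lower as deposited. After quantile normalization that range held 10 higher and 12 lower, and the brightest range held 15 higher and 7 lower. The median difference there was 0.26 for LINC genes as deposited and 0.12 after quantile normalization, compared with 0.00 and -0.10 for all genes. Of the 101 calls, 42 concerned genes below background in both groups (29 higher and 13 lower, of 752 such LINC genes), and their folds carry little meaning. Over all 33616 genes there were 7665 calls, and 6806 of these concerned the 17390 genes above background. Among the 176 genes above background 40 rose and 19 fell (33.5% called), against 39.1% of all genes above background. They passed that filter through the group in which they were high, so this count describes them and supports nothing. Genes above background had a median SD on the log2 scale of 0.25 with CX-4945 and 0.19 with DMSO (n = 3 each).

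**Figure D2:**
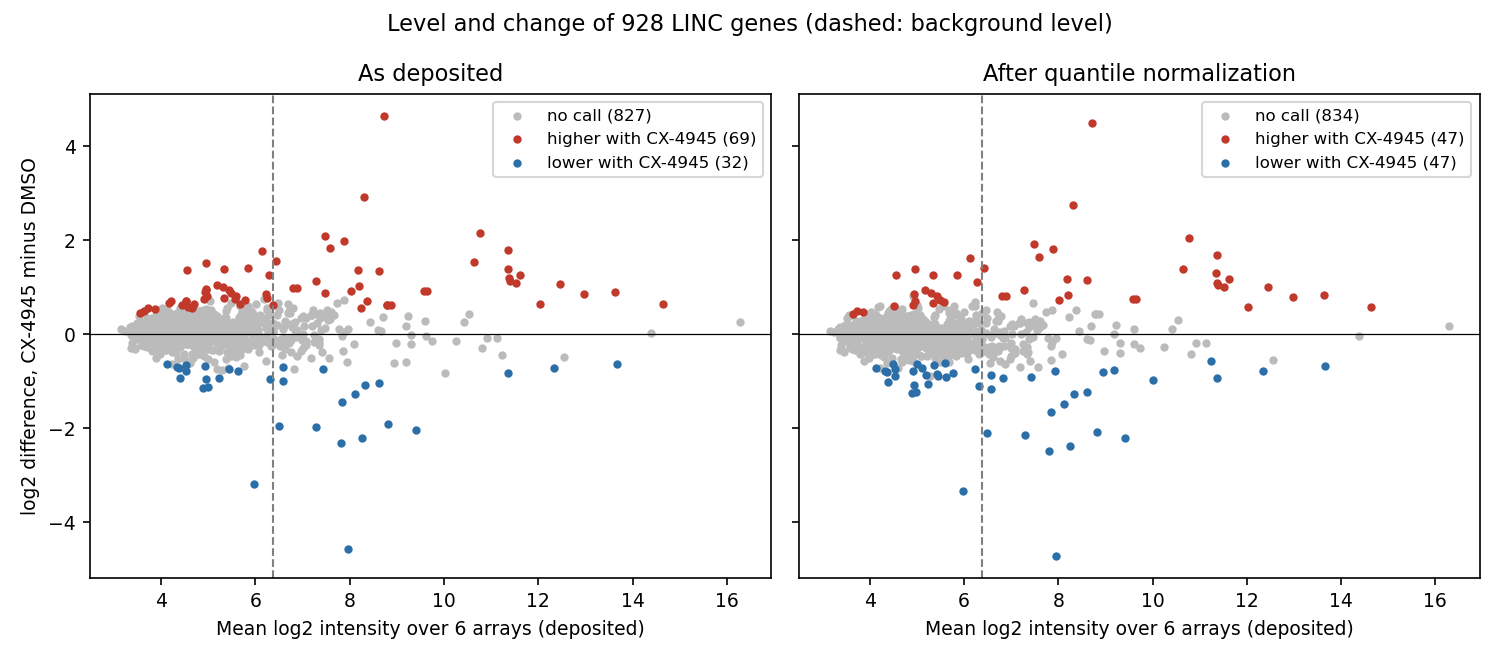
Log2 difference (CX-4945 minus DMSO) of each of the 928 LINC genes against its mean log2 intensity over the 6 arrays, as deposited (left) and after quantile normalization (right), with calls in colour and the background level of 6.38 dashed. Most genes sit left of the line with differences near 0, and LINC01599 (4.66) and LINC03030 (-4.58) stand at the extremes of the left panel.

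Under both scalings, with groups that did not overlap and a level above background in at least 1 group, 31 LINC genes rose and 19 fell. No count over all genes under the same conditions is given, so these numbers describe the LINC genes only. Groups did not overlap in 52.8% of LINC genes above background and in 53.6% of all genes above it. Of the stable LINC changes, the 12 with the highest and the 12 with the lowest log2 differences are described here. For each of these 24, p = 0.1 in an exact permutation test (two-sided) over its 6 arrays, which is the smallest p that 3 against 3 allow and follows from choosing groups that do not overlap.

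LINC01599 had the highest rise. Its intensities were 2395, 1541 and 2597 with CX-4945, against 102, 65.7 and 88.8 with DMSO. The DMSO arrays lay around the background level and every treated array far above it. The log2 difference was 4.66 ± 0.25, or 25.3-fold, with an adjusted p of 7.54e-08. Here and below, ± gives the SE of the limma fit with moderated variance, not one from the gene's own arrays alone. LINC01588, which follows it along the chromosome, had 1119, 607 and 976 with CX-4945, against 105, 142 and 103 with DMSO. It rose 7.56-fold (log2 difference 2.92 ± 0.25, adjusted p 3.72e-06). For both genes replicate 2 was the lowest of the treated arrays. No role is known for either RNA, and both carry former names of open reading frames (C14orf183 for LINC01599 and C14orf182 for LINC01588).

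Both genes lie on chromosome 14, and RefSeq gives them on the same strand with the end of LINC01599 overlapping the start of LINC01588. The start of LINC01599 in turn lies inside VCPKMT, the gene of a lysine methyltransferase of the chaperone VCP, on that strand as well. VCPKMT had 5386, 4638 and 8502 with CX-4945, against 1152, 1095 and 889.7 with DMSO, and it rose 5.74-fold (log2 difference 2.52 ± 0.22, adjusted p 4.74e-06). On the other side of LINC01588 the nearest measured coding gene was ARF6, a small GTPase of endocytosis. ARF6 had 17498, 21927 and 17094 with CX-4945, against 9044, 11994 and 9139 with DMSO, a log2 difference of 0.91 ± 0.16 (adjusted p 0.00112). SOS2, a Ras exchange factor beyond VCPKMT, had 1519.8, 904 and 1740.3 with CX-4945 and 997, 1057 and 924 with DMSO, groups that overlapped (log2 difference 0.43, adjusted p 0.236). SOS2 was picked after the values had been seen. The difference was thus highest at LINC01599 and smaller at each neighbour on either side. Whether transcripts of these genes share RNA was not tested.

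**Figure D3:**
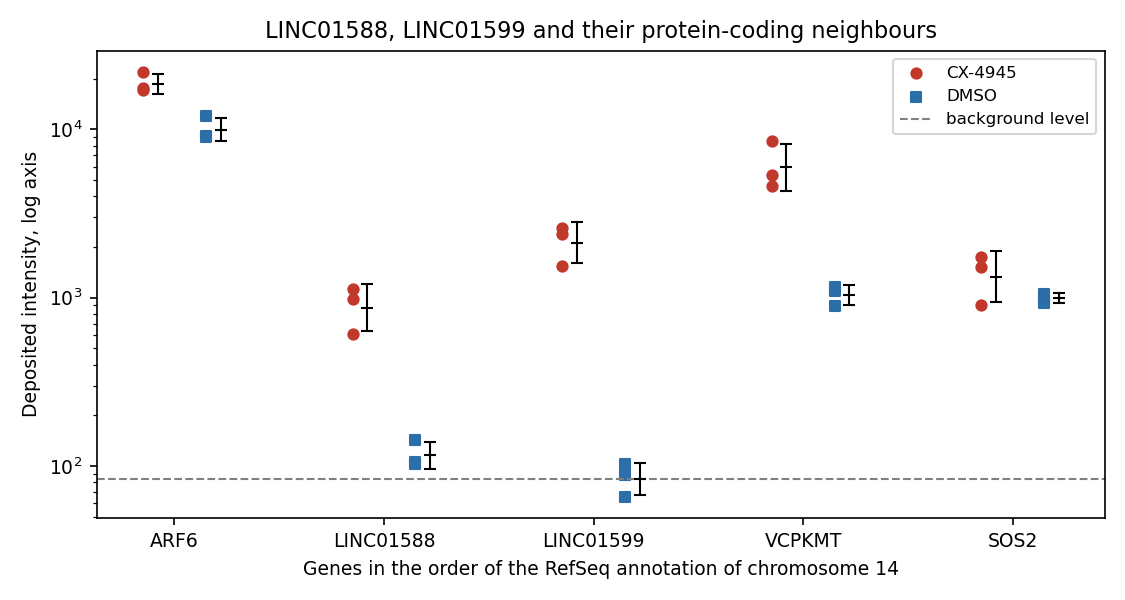
Deposited intensity on a log axis for ARF6, LINC01588, LINC01599, VCPKMT and SOS2 in the order of the RefSeq annotation, with the 3 CX-4945 arrays (red circles) left of the 3 DMSO arrays (blue squares), mean and SD of log2 values as black bars, and the background level dashed. The groups are separate in the first 4 genes and overlap in SOS2; LINC01599 has the widest gap, with 1541 or more with CX-4945 and 102 or less with DMSO.

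Other rises were of RNAs that were well measured in both groups. LINC00662, described in several carcinomas, had 3585, 3607 and 3868 with CX-4945, against 757, 922 and 807 with DMSO. Its treated arrays agreed closely (SD 0.06) and lay far above the DMSO arrays (log2 difference 2.16 ± 0.16, 4.46-fold, adjusted p 1.46e-06). LINC01128 had 3735, 5769.7 and 5465 with CX-4945, against 1157, 1703 and 1419.5 with DMSO (3.48-fold). LINC00641 had 3702, 1754 and 3104 with CX-4945, against 959, 718 and 1183 with DMSO (2.91-fold), again with replicate 2 as the lowest treated array. LINC01138 had 4877, 3889 and 4029 with CX-4945, against 1558, 1792 and 1488 with DMSO (2.64-fold, adjusted p 5.45e-05).

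Dimmer rises followed. LINC01023 had 269.7, 539 and 350.2 with CX-4945, against 75.5, 117 and 72.3 with DMSO (4.30-fold), where 1 of 3 DMSO arrays was above background. LINC00515 had 572, 368 and 501 with CX-4945, against 125, 103 and 129.8 with DMSO (3.98-fold). LINC01031 was the most variable, with 453, 182 and 582 with CX-4945, against 132, 104 and 76.9 with DMSO (log2 SD 0.88 in the treated group, 3.57-fold). In the other 3 rises all DMSO arrays were below background, so only a bound holds, taken against the higher of the background level and the array's own value. LINC00941, reported as raised in several carcinomas, had 126, 166 and 155 with CX-4945, against 57.8, 37.4 and 58.1 with DMSO, and was at least 1.78-fold higher (measured log2 difference 1.57). LINC00240 had 132, 119 and 139.9 with CX-4945, against 48.2, 32.2 and 34.5 with DMSO, and was at least 1.55-fold higher (measured 1.78). LINC00640 had 85.7, 76.2 and 129 with CX-4945, against 54.3, 20.1 and 40.1 with DMSO, and was at least 1.13-fold higher (measured 1.42).

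LINC03030 had the deepest fall. Its intensities were 36.4, 69.8 and 52.2 with CX-4945, against 771, 1446 and 1618 with DMSO. All treated arrays were below background and all DMSO arrays far above it, so it was at least 14.6-fold lower (measured log2 difference -4.58 ± 0.31, adjusted p 4.90e-07). LINC01451 had 18.6, 21.4 and 22.7 with CX-4945, against 268, 190.2 and 136 with DMSO. It was at least 2.28-fold lower (measured log2 difference -3.19 ± 0.25, adjusted p 1.79e-06), and its treated arrays lay under the median LINC intensity of each array. LINC00540 had 53.6, 64.5 and 27.8 with CX-4945, against 138, 157 and 261 with DMSO, and was at least 2.13-fold lower (measured -1.96).

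Falls within the measured range included 2 genes with coding content. LINC00467, which encodes the peptide ASAP that binds ATP synthase, had 75.4, 87.6 and 153 with CX-4945, against 579, 529 and 399 with DMSO (4.95-fold lower, log2 difference -2.31 ± 0.27, adjusted p 4.71e-05), with 2 of 3 treated arrays above background. The row named LINC00341, which belongs to SYNE3 in the newer annotation, had 114, 166 and 153 with CX-4945, against 663, 813 and 533 with DMSO (4.63-fold lower, adjusted p 1.50e-05). The array has a separate row for SYNE3, with 42.5, 37.9 and 43.3 with CX-4945, against 79.0, 80.7 and 92.4 with DMSO. The SYNE3 row was called lower as well (limma adjusted p 0.00156). It was below background on 5 of 6 arrays, so no fold is given for it. LINC00174 had 314, 304 and 399 with CX-4945, against 1519, 1207 and 1448 with DMSO, with tight groups that lay far apart (4.12-fold lower, adjusted p 7.71e-06).

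LINC00339 had 84.5, 104 and 55.5 with CX-4945, against 302, 371 and 263 with DMSO (3.93-fold lower), with 2 of its 3 treated arrays above background but their mean below it. LINC01535 had 128, 405 and 240.3 with CX-4945, against 969.9, 1012 and 677 with DMSO (3.76-fold lower), and its treated arrays were spread widely (log2 SD 0.83). LINC00882 had 127, 94.5 and 222 with CX-4945, against 311, 406 and 431 with DMSO (2.73-fold lower). In these 3 genes the treated arrays remained nearer to background than the DMSO arrays. LINC00648 had 274, 94.6 and 219 with CX-4945, against 358, 437 and 522 with DMSO (2.43-fold lower). LINC01446 had 277, 148 and 262 with CX-4945, against 461, 554 and 396 with DMSO (2.11-fold lower). LINC01239 had 301, 273 and 255 with CX-4945, against 652, 459 and 591 with DMSO (2.04-fold lower). Without moderation of the variance 8 of the 24 lost their call, with adjusted p between 0.0788 (LINC00540) and 0.201 (LINC00648); the others were LINC01031, LINC00641, LINC00640, LINC01535, LINC00882 and LINC01446. LINC00648 also lost it without DMSO replicate 2 (0.0531) or DMSO replicate 3 (0.0661).

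**Figure D4:**
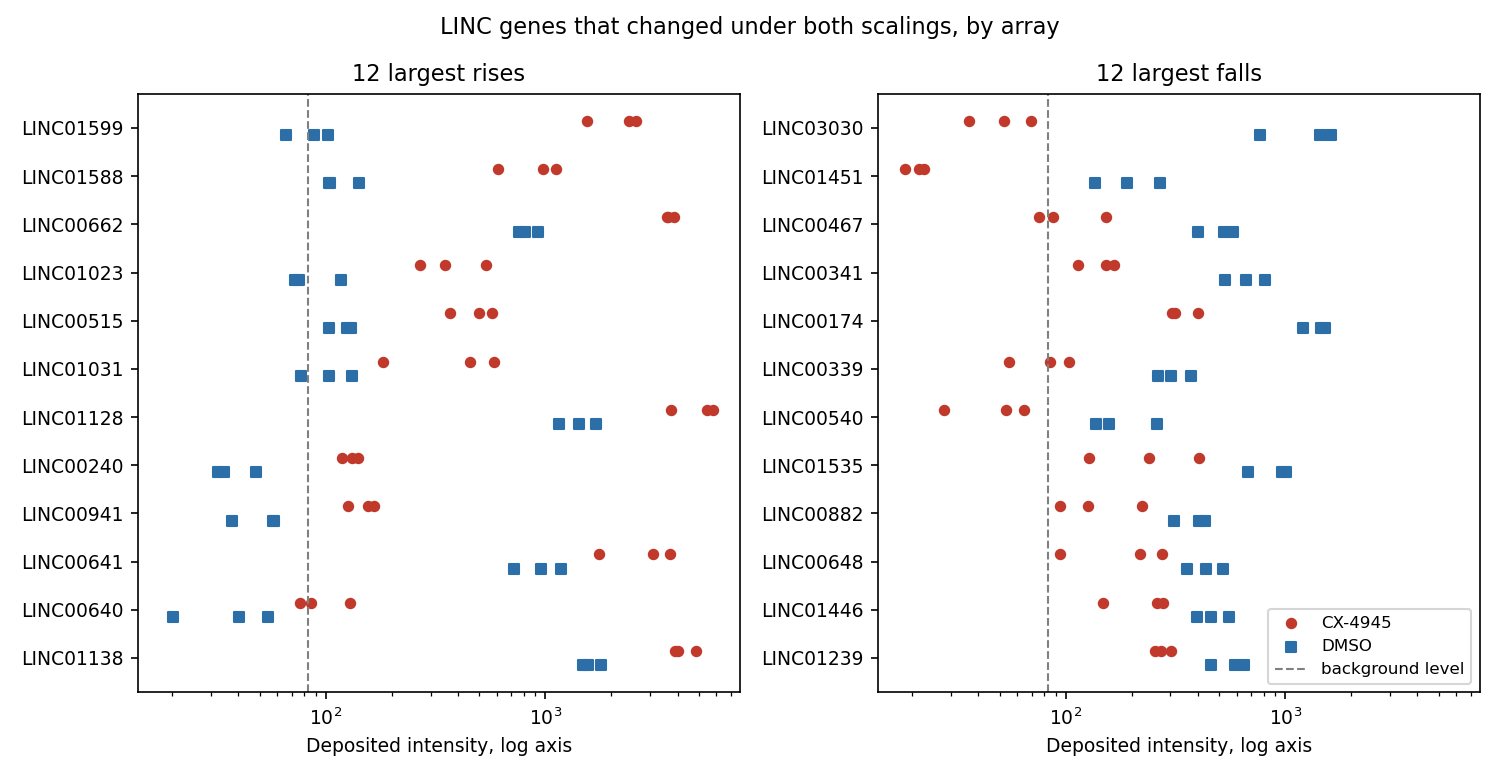
Deposited intensity on a log axis of the 12 LINC genes with the highest rises (left) and the 12 with the deepest falls (right), with 3 CX-4945 arrays (red circles) above 3 DMSO arrays (blue squares) for each gene and the background level of 83.5 dashed. The groups do not overlap in any of the 24, as the choice of genes requires, and LINC03030, LINC01451 and LINC00540 lie wholly below background with CX-4945.

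Of the 10 brightest LINC genes 5 rose and 2 fell, by 1.55-fold to 2.10-fold, where 49.0% of all genes with a mean log2 level of 9 and over were called. The brightest was LINC01002, with 85982, 86584 and 90249 with CX-4945, against 68711, 70350.4 and 79130.2 with DMSO; its groups did not overlap, but it did not pass (log2 difference 0.27 ± 0.11, adjusted p 0.0923). LINC01000 had 32058, 30372 and 33609.7 with CX-4945, against 18112, 20612 and 22770.1 with DMSO, and rose 1.57-fold (adjusted p 0.00271). LINC01001 rose 1.56-fold (adjusted p 0.0167), a call lost with equal array medians (0.0646) and without any 1 of CX-4945 replicate 1 (0.0508), CX-4945 replicate 3 (0.0802), DMSO replicate 1 (0.0928) or DMSO replicate 3 (0.0564), and without moderation (0.0987). The start-site windows of LINC01001 and LINC01002 were identical at 230 of 300 bases (76.7%), the highest of 666 pairs of windows compared. Apart from this pair and LINC01535 with LINC00665 (73.3%), the highest identity was 64.0%. The windows lie mostly before the start site, and whether the 2 rows are separate measurements was not tested. LINC01347 rose 1.86-fold (adjusted p 0.00187), and its other row differed in the same direction (0.78, with 0.89 on the brighter row). Its call was lost without moderation (0.0681). LINC00999 rose 1.81-fold and LINC03009 2.10-fold (adjusted p 0.00104 and 2.03e-04). LINC00674 had 10793, 9574 and 11006 with CX-4945, against 15439, 16298 and 16929 with DMSO, and fell 1.55-fold (adjusted p 0.00350). LINC02210, which overlaps a readthrough gene of the corticotropin-releasing hormone receptor CRHR1, fell 1.63-fold (adjusted p 0.0134), a call lost without CX-4945 replicate 1 or without DMSO replicate 2 (0.0734), and without moderation (0.119). LINC00963 (log2 difference -0.49, adjusted p 0.0900) and LINC00265 (0.02, adjusted p 0.958) did not pass.

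LINC01138, LINC00623 and LINC00869 each have a gene of the PPIAL4 family as nearest measured coding neighbour, a family that lies in a duplicated stretch of that chromosome. LINC00623 had 3965, 3882 and 4083 with CX-4945, against 1668, 1840.0 and 1922 with DMSO (2.20-fold higher, adjusted p 1.49e-04). LINC00869 had 5208, 4448 and 4952 with CX-4945, against 1775, 2358 and 1986 with DMSO (2.40-fold higher, adjusted p 1.23e-04). The 3 genes differed in the same direction, and their neighbours PPIAL4G (-0.15), PPIAL4A (-0.33) and PPIAL4C (-0.01) did not pass the test. LINC00623 and LINC00869 were picked after their values had been seen. Copies in duplicated sequence can share probes, and whether these rows do was not tested.

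Of 24 LINC genes that are well described in tumours or development, 21 were measured and 12 lay above background. Of the 21, 4 rose and 3 fell, against 10.3% and 12.5% of all genes, and 14 passed no threshold; their median log2 difference was 0.10. The rises were those of LINC00662 and LINC00941, given above, and of LINC00520 and LINC00632. LINC00520, known in endothelial cells as an enhancer RNA of the nitric oxide synthase gene, had 246, 252 and 194 with CX-4945, against 102, 109 and 103 with DMSO (2.18-fold higher, adjusted p 0.00106). The falls were those of LINC00467 and LINC00339, given above, and of LINC01116, which was below background in both groups (62.6 at most) and lost its call without moderation (0.0744).

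LINC00473, which cAMP and CREB induce in human cells, had 495, 377 and 573 with CX-4945, against 622, 758 and 770.5 with DMSO. The treated arrays lay below the DMSO arrays, but the difference did not pass as deposited (log2 difference -0.59 ± 0.21, adjusted p 0.0611). It passed after quantile normalization (-0.77, adjusted p 0.0122) and with equal array medians (-0.72, 0.0272).

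LINC00632 is the host gene of the circular RNA CDR1as, and RefSeq lists CDR1-AS as a synonym of it. The row named LINC00632 had 1603, 752 and 1107 with CX-4945, against 571, 697 and 485 with DMSO. The groups did not overlap, although treated replicate 2 came close to DMSO replicate 2, and the log2 difference was 0.93 ± 0.26 (adjusted p 0.0215). The call was lost without CX-4945 replicate 1 (0.0788), CX-4945 replicate 3 (0.0610), DMSO replicate 1 (0.0696) or DMSO replicate 3 (0.0966), and without moderation (0.195). The array has a separate row named CDR1-AS, the brightest but 3 of all genes. It had 738153, 662578 and 618203 with CX-4945, against 749895, 699139 and 730761 with DMSO, groups that overlapped (log2 difference -0.11 ± 0.09, adjusted p 0.422). Neither row tells circular from linear RNA.

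The others did not pass. Above background were LINC01234 (log2 difference -0.29), LINC00667 (0.10), LINC01503 (-0.12), LINC00665 (0.56, adjusted p 0.0926) and LINC00963. Below background in both groups were LINC00261, which lies beside the endoderm factor FOXA2 (0.19), LINC00511 (0.09), LINC00460 (0.34), LINC00472 (-0.23), LINC01133 (0.19), LINC00707 (0.39), LINC00958 (-0.41) and LINC00518 (0.19). Their signal could not be told from background.

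Each LINC gene was set beside its nearest measured protein-coding gene in RefSeq. That gene was over 100 kb away for 344 of the 928, 10 to 100 kb away for 387 and no farther than 10 kb for 197. Those with a neighbour over 100 kb away included LINC00662, LINC00240, LINC00540, LINC00882, LINC01446 and LINC01239. The neighbour was called for 30 of the 101 called LINC genes (29.7%) and for 245 of the 827 others (29.6%), compared with 32.1% of all protein-coding genes, so the share of called neighbours was nearly equal beside called and other LINC genes. Of the 30 pairs, 20 differed in the same direction (11 higher and 9 lower) and 10 in opposite directions. Among the 20 was LINC02210 (-0.71) with MGC57346-CRHR1 (-0.54), the readthrough gene that it overlaps. Whether these rows measure separate RNAs was not tested. Over all pairs the differences correlated at r = 0.09 (n = 928 pairs, all from the same 6 arrays), and over the 50 pairs in which the bodies overlap at 0.39, with LINC01599 and VCPKMT at the extreme. For pairs without overlap r was -0.05 within 10 kb, 0.12 at 10 to 100 kb and 0.00 over 100 kb. For antisense RNAs 42 of 64 such pairs went the same way. Of the 12 largest rises, 3 had a neighbour that was also higher: VCPKMT, ARF6 and CAPRIN2, an RNA-binding protein of Wnt signalling (0.87 beside LINC00941). FRMD6, a FERM protein of Hippo signalling beside LINC00640, was lower (-0.78). The other neighbours did not pass: HNRNPC beside LINC00641 (0.26), CDC73 beside LINC01031 (0.30), FER beside LINC01023 (0.06), MRPL39 beside LINC00515 (-0.07), VSTM2B beside LINC00662 (-0.05), SAMD11 beside LINC01128 (-0.03), PPIAL4G, and H2BC11 beside LINC00240 (-0.43, adjusted p 0.0988).

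Of the 12 deepest falls, 3 had a neighbour that was also lower: AQP11, an aquaporin of internal membranes beside LINC03030 (-1.45 ± 0.22, adjusted p 3.19e-04), the growth factor FGF9 beside LINC00540 (-1.11), and TPST1, a tyrosine sulfotransferase beside LINC00174 (-0.93). ZNF383, a zinc finger gene within 10 kb of LINC01535, went the other way. It had 7752, 8629 and 7532 with CX-4945, against 1173, 1799.6 and 1554 with DMSO (5.36-fold higher, adjusted p 1.34e-06), while LINC01535 was 3.76-fold lower. The start-site windows of LINC01535 and LINC00665, which was not called, were identical at 220 of 300 bases. Past no threshold were TRAF5 beside LINC00467 (0.14), GLRX5 beside LINC00341 (-0.52, adjusted p 0.0512), CELA3A beside LINC00339 (0.43), EGFL7 beside LINC01451 (-0.19), CCDC54 beside LINC00882 (0.05), MDGA2 beside LINC00648 (-0.34), POM121L12 beside LINC01446 (-0.15) and DMRTA1 beside LINC01239 (0.41). In all, 8 of the 24 neighbours were called (33.3%), 6 in the direction of the LINC gene and 2 in the opposite one, a share near that of all neighbours. Among pairs no farther apart than 10 kb, 3 of the 5 in which both were called went the same way, LINC02210 with its readthrough gene among them.

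**Figure D5:**
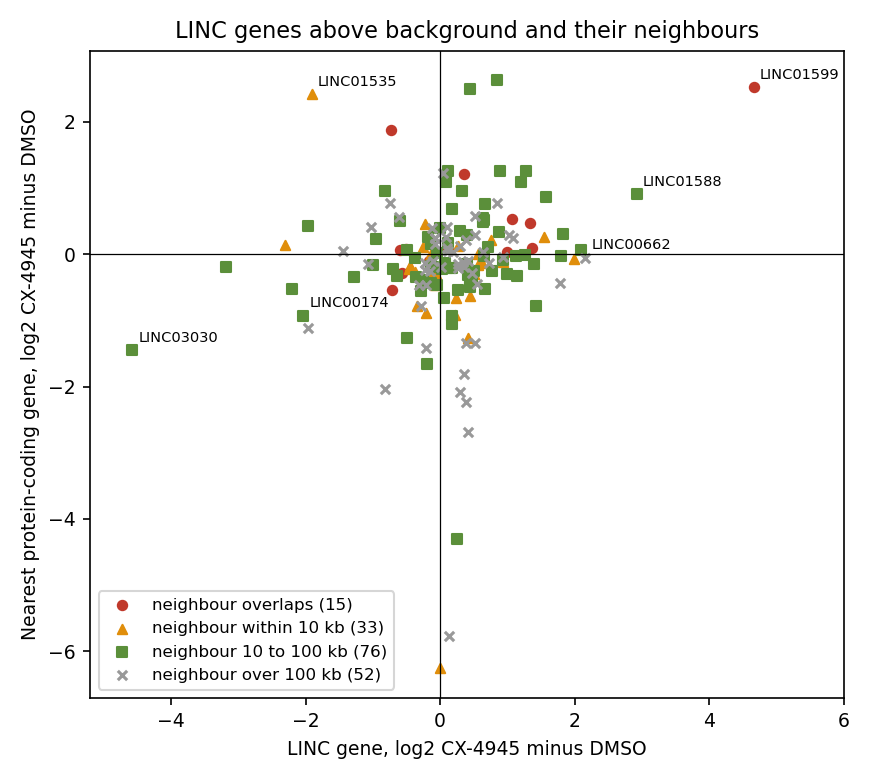
Log2 difference of the nearest measured protein-coding gene against that of the LINC gene, for the 176 LINC genes above background, with colour and shape for the distance class. LINC01599 with VCPKMT lies at the upper right, LINC03030 with AQP11 at the lower left and LINC01535 with ZNF383 at the upper left, and most points lie near one of the axes.

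The median span of the gene body in RefSeq was 24008 bases for the 69 that rose, 32218 for the 32 that fell and 13830 for the 827 not called. Of 24 LINC genes with several rows, 5 had a call on a row other than the brightest. In LINC00623 and LINC01347 both rows were called, in the same direction. In LINC01183 (0.75, with 0.67 on the brightest row), LINC01493 (0.62, with 0.20) and LINC01579 (-0.60, with 0.12) the brightest row was not called. The rows of LINC01579 thus differed in sign.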

How the data were processed

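RNA of 6 samples was measured on whole-transcript arrays, with groups and replicate numbers taken from the sample titles. Per the submitters' processing notes, Affymetrix Expression Console was used; its version and normalization, and the build behind the array's rows, were not stated in the sources at hand. The deposited values are intensities on a linear scale (6.41 to 919659), taken as already normalized by the authors. The log2 of each was used with no pseudocount. The platform's annotation named 36176 of 135750 rows with 1 symbol and 1119 with several; the others are unnamed here. LINC genes were matched to RefSeq by gene identifier, symbol or synonym. Differences (CX-4945 minus DMSO) were fitted in R 4.3.3 with limma 3.58.1, using lmFit and eBayes with an intensity trend, and two-sided p-values were adjusted after Benjamini and Hochberg across the 33616 genes (threshold 0.05). The fit was tested on simulated data. Means and SDs are of 3 arrays, a number that limits their precision. Named were the 12 highest and 12 lowest stable differences, the 10 brightest genes, a list of 24 studied genes and the neighbours of the first 24; genes outside this rule are marked as such or stand as a count's examples. Members and lists were chosen with earlier results of these data known. Same-numbered arrays of the groups did not deviate together (r = 0.092, 0.090 and -0.035), so the numbers were not treated as pairs. Scan batches could not be tested. Alternatives were quantile normalization, equal medians, no trend, no moderation, filters on dim genes, the mean of rows, all rows, the replicate block, array weights and leaving out each array.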

Additional observations from a re-analysis of the deposited data

How the results depend on the processing

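The count of LINC genes that rose was 69 and of those that fell 32. Leaving out 1 array gave 42 to 74 rises and 23 to 33 falls, with the lowest count of rises without DMSO replicate 1. Without moderation 32 rose and 12 fell. With a filter at the median gene level, which leaves fewer LINC genes to test, 41 rose and 21 fell, and with equal array medians 51 fell. With array weights 87 rose and 40 fell, and with the replicate block 71 rose and 37 fell, all within 1.5 times the main counts. The share of LINC genes above background moved to 11.3% at the 99th percentile of olfactory receptors and to 59.6% at their median. With neighbours no farther than 10 kb 3 pairs were called in the same direction, since only 197 pairs remain. Over 50 single genes, 729 of 778 values kept their direction and their side of the threshold, 26 lost a call, 11 gained one and 12 changed sign. The sign changes concerned 3 genes that passed no threshold. LINC00265 was at -0.04 with quantile normalization, -0.12 with equal medians and -0.05 to 0.12 when 1 array was left out. LINC00511 was at -0.04 with either scaling, -0.03 with array weights and -0.08 to 0.24 when 1 array was left out, and LINC00667 at -0.10 with quantile normalization and -0.03 with equal medians. Apart from the effects of construction named here, the cause was not tested. Of the 50 stable changes 29 were called in every alternative in which the gene was tested. Signal over background limits what can be said of the 752 LINC genes below it.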

Other observations

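Rows that carry a LINC symbol together with another gene were left out of the members, and 25 such rows were on the array, 10 of them above background. In 6 of these 10 the groups did not overlap (compared with 53.6% of all genes above background), 4 of them higher and 2 lower; they were not part of the fit, so no test is given. The row shared by FGF13, a fibroblast growth factor relative that binds sodium channels, and LINC00889 had 2073, 1918 and 3117 with CX-4945, against 39473, 40902 and 36317 with DMSO, a log2 difference of -4.07. The row shared by LINC00673 and LINC00511 had 107, 109.8 and 114 with CX-4945, against 65.3, 44.9 and 44.6 with DMSO. All its DMSO arrays were below background, and so was the brightest row of LINC00511 alone in both groups, so no fold is given. The row shared by LOC644634 and LINC00869 differed by 1.03, near the 1.26 of LINC00869 itself. The row of CCDC80 and LINC01279 was lower (-0.45), and those of KMT2E-AS1 and LINC01004 (0.41) and of DUXAP10 and LINC01296 (0.45) were higher without overlap. Another row of DUXAP10 and LINC01296 differed by 0.38, with groups that overlapped.

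Among the pairs of a LINC gene and its coding neighbour that were both called, some neighbours had a larger difference than the LINC gene. The cystine transporter gene SLC7A11 differed by 2.63 beside LINC00500 (0.85), now LINC00499 in RefSeq. Cyclin L1, CCNL1, a cyclin of splicing kinases, differed by 1.71 beside LINC00880 (0.49), and DNAJB9, an ER chaperone, by 1.12 beside LINC02903 (0.70). ID2, an inhibitor of helix-loop-helix factors, differed by -3.55 beside LINC00299 (-0.71). Glutamine synthetase, GLUL, differed by -2.20 beside LINC01344, which rose (0.74). LINC00880, LINC02903, LINC00299 and LINC01344 lay below background in both groups, so the size of their differences carries little meaning. DNAJB9 and ID2 lay over 100 kb from their LINC genes. These pairs were picked after their values had been seen.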
